A study of Homo sapiens with 6 samples.

Results

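The PCBP family comprises PCBP1, PCBP2, PCBP3 and PCBP4, and HNRNPK is the related gene that encodes hnRNP K. These 5 genes were chosen by name from the transcript annotation and account for 101 of the 252045 transcripts and 5 of the 62252 genes that were quantified. RNA came from K562 cells, an established human erythroleukemia line, in 6 libraries. In the DMSO group (n = 3) cells received the vehicle alone, volume-matched to the drug. In the Chelator group (n = 3) they received 10 µM 21H7, an iron chelator that enters cells. Both treatments ran overnight, both groups are the same unmodified line, and the replicates were described as biological.

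All members of the group carry KH domains, small folds that bind single-stranded nucleic acid, and they prefer cytosine-rich stretches. Through such sites they act on splicing, mRNA stability and translation, and the alpha-globin mRNA of erythroid cells is a classical target. PCBP1 and PCBP2 have a second function as iron chaperones, which hand ferrous iron to ferritin and to iron-dependent enzymes. Iron chaperone activity has also been reported for PCBP3 and PCBP4. The comparison asks whether the mRNAs of these proteins themselves differ in amount or in isoform when cellular iron is withheld.

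The libraries held 78.6 M to 101.1 M estimated read counts (M, 1000000). Length minus effective length, as a median over a set of transcripts without counts, tracks the fragment length. This median ranged from 252 to 264 bases over the DMSO libraries and from 200 to 218 bases over the Chelator libraries, without overlap. All 9 erythroid markers of K562 exceeded 1 TPM (transcripts per 1000000, adjusted for length) in every library. Their summed level was 16902 to 18491 TPM in DMSO and 22475 to 23984 TPM in Chelator. The sum was mostly globin mRNA, while the transcription factor KLF1 was at 77.8 to 87.4 TPM in DMSO and at 47.7 to 52.9 TPM in Chelator, and GATA1 at 164 to 178 and 151 to 164 TPM. Of 8 markers of other lineages, EPCAM (62.3 to 68.8 TPM in DMSO, 45.6 to 50.3 TPM in Chelator) and CD3D (10.0 to 16.2 and 38.9 to 40.7 TPM) were the highest, COL1A1 was at 0.502 to 0.646 and 1.65 to 2.10 TPM, COL1A2 at 2.19 to 2.71 and 1.66 to 2.08 TPM, and MS4A1 was at 0 in every library. The summed level of these 8 was 82.1 to 83.8 TPM in DMSO and 92.0 to 98.2 TPM in Chelator. The part of fragment length or of these marker levels in the results was not tested. Fewer cells and less RNA per cell cannot be told apart in bulk RNA.

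PCBP1 is a single-exon gene, held to have arisen from a processed PCBP2 transcript, and PCBP2 is spliced. Both were lower in Chelator (described next), so their start-site regions were compared. The most alike 30-base windows of their RefSeq promoters (GRCh38.p14) matched at 27 of 30 bases. This is a best match, and no such value for other pairs of promoters is given beside it. They are shown with matching bases in capitals.
PCBP1, chr2:70087425-70087454, plus strand: CTTCCGGGGTCagAGGGTaCGCGGGGTTGA
PCBP2, chr12:53452045-53452074, plus strand: CTTCCGGGGTCgaAGGGTgCGCGGGGTTGA
The windows end 23 bases and 28 bases before the annotated start sites. The letters ACGTG and GCGTG, the core of the site read by hypoxia-inducible factors, were searched on both strands of the regions from 250 bases before to 50 bases after each start. The PCBP1 region held neither, and the PCBP2 region held GCGTG at 2 positions. Of 3 PCBP4 regions 1 held ACGTG, and of 2 HNRNPK regions 1 held GCGTG and 1 held ACGTG. One or both sets of letters occur in 48.4% of the 35116 promoters in the table. These matches describe the letters alone.

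PCBP2 was the most abundant member in both groups, followed by HNRNPK and PCBP1. In DMSO, PCBP2 averaged 550 ± 37 TPM (SD, n = 3), HNRNPK 433 ± 22 TPM and PCBP1 319 ± 16 TPM. In Chelator the averages were 473 ± 26 TPM, 430 ± 8.9 TPM and 255 ± 16 TPM in the same order. The library ranges of neighbouring genes in this order did not overlap in either group. PCBP2 ranked between 199 and 263 among all genes, HNRNPK between 254 and 280, and PCBP1 between 361 and 505. PCBP4 ranked between 9779 and 12235, and PCBP3 between 12658 and 23936.

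PCBP1 encodes an iron chaperone that also represses and stabilizes mRNAs. It was at 307, 337 and 313 TPM in the DMSO libraries and at 237, 263 and 266 TPM in the Chelator libraries. Every Chelator library lay below every DMSO library. PCBP1 fell by 0.35 on the log2 scale (SE 0.07, adjusted p = 1.95e-06, DESeq2 Wald test), which is a change of -21.7% with a 95% interval from -28.6% to -14.0%.

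PCBP2, the paralog with the best-known role in stabilizing globin mRNA and in viral and innate immune responses, moved the same way. It was at 525, 593 and 533 TPM in DMSO and at 503, 457 and 459 TPM in Chelator. Here too the groups did not overlap, and the first Chelator library was the nearest to DMSO. PCBP2 fell by 0.25 on the log2 scale (SE 0.08, adjusted p = 0.00453), a change of -15.6% with a 95% interval from -23.9% to -6.46%.

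HNRNPK encodes hnRNP K, a nuclear and cytoplasmic protein that acts in transcription, splicing and translation. Its gene sum was at 428, 457 and 413 TPM in DMSO and at 420, 435 and 436 TPM in Chelator, and the groups overlapped. The log2 fold change was -0.04 (SE 0.07, adjusted p = 0.707), and the 95% interval of the change ran from -11.0% to 6.47%. With all libraries centred on the mean log2 change of the tested genes, a scaling that shifts the median of all genes from 0.02 to -0.17, the HNRNPK value became -0.22 with an adjusted p of 0.035. Relative to the median of all genes it was -0.05 under both scalings.

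PCBP4 encodes a family member first described as a p53-induced gene that restrains proliferation. It was at 1.52, 2.14 and 1.64 TPM in DMSO and at 4.03, 3.11 and 5.24 TPM in Chelator. Each Chelator library lay above all DMSO libraries, and the third stood highest. The estimated counts behind these values were 246, 252 and 200 in DMSO and 527, 551 and 514 in Chelator. PCBP4 rose 2.31-fold (log2 1.21, SE 0.21, adjusted p = 4.71e-08). The direction held and the adjusted p stayed under 0.05 under every alternative tried, but the fold change dropped under 2 without the length offset (log2 0.96), with limma (0.98), with GC content and length trends removed (0.81) and with these trends removed beside a replicate block (0.79). The average effective length of the gene's transcripts was 1846 bases with DMSO and 1622 bases with the chelator, which enters the offset.

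PCBP3 was near the limit of detection. Its gene sum rested on 11, 9 and 7 estimated counts in DMSO and on 13, 11 and 4 in Chelator. On the TPM scale it was at 1.28, 0.26 and 0.05 in DMSO and at 0.12, 0.06 and 0.15 in Chelator. The first DMSO value stood apart, and 98.3% of it belonged to PCBP3-211, a 318-base transcript without a defined coding sequence that held 8 counts there. The log2 fold change of -2.20 (SE 1.01) did not pass (adjusted p = 0.0724), and it was -0.39 without the first DMSO library and -0.19 without the length offset.

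Of the 5 members, 3 passed at an adjusted p under 0.05, against 37.7% of the 24542 genes tested. PCBP1 and PCBP2 passed as lower, against 18.3% of genes, and PCBP4 as higher, against 19.5%. With a fold change above 2 also required, PCBP4 was the 1 member called, against 10.8% of genes (8.18% higher, 2.6% lower). The normalized counts of PCBP1, PCBP2 and PCBP4 did not overlap between the groups, which was true of 49.2% of all genes.

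**Figure D1:**
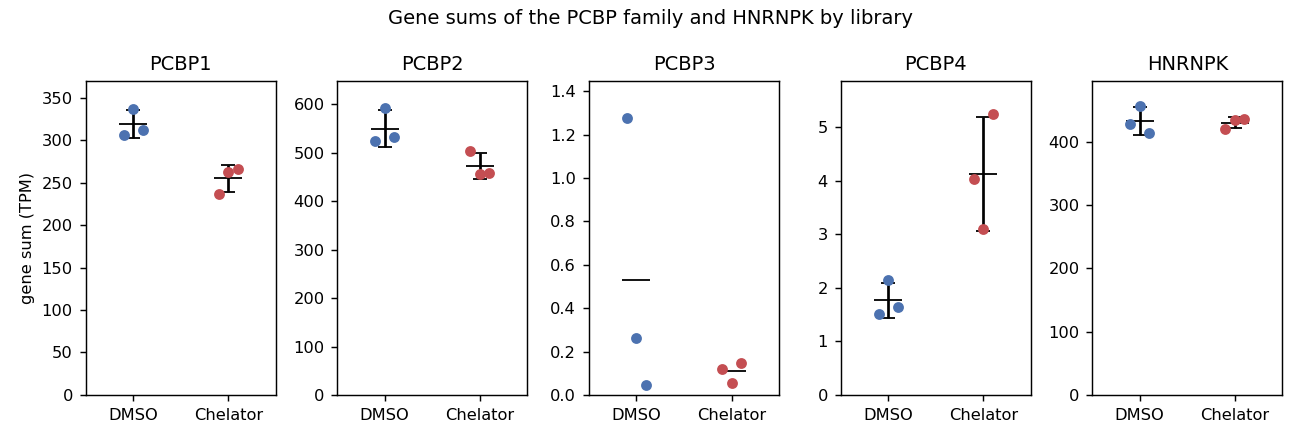
Gene sums in TPM (y axis, from 0, a separate scale for each gene) of the 5 members in the 3 DMSO (blue) and 3 Chelator (red) libraries; each point is a library, bars are mean ± SD, and PCBP3 has its mean alone. PCBP1 (237 to 266 TPM in Chelator) and PCBP2 lie lower and PCBP4 (3.11 to 5.24 TPM) higher in all Chelator libraries, while HNRNPK overlaps.

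**Figure D2:**
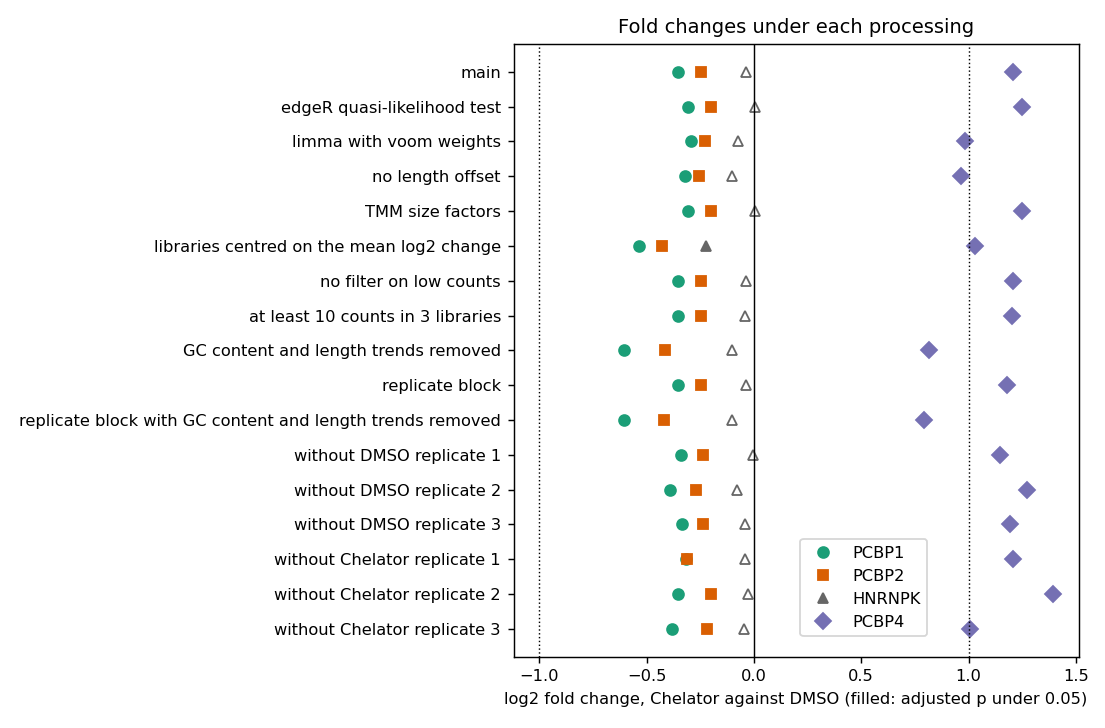
Log2 fold change of 4 members (x axis) under the main processing and each alternative (y axis); filled symbols passed at an adjusted p under 0.05, and dotted lines mark a 2-fold change. PCBP1 stays between -0.61 and -0.29 and PCBP2 between -0.43 and -0.20, while PCBP4 spans 0.79 to 1.39.

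The make-up of the family was then described as each member's share of the summed TPM of PCBP1 to PCBP4. PCBP1 held 36.8%, 36.2% and 36.9% of the family in DMSO and 31.8%, 36.3% and 36.5% in Chelator. The first Chelator library was low, and the groups overlapped (difference -1.73 percentage points, exact permutation p = 0.3, adjusted p = 0.6 over 4 members). PCBP2 held 62.9% to 63.6% in DMSO and 62.8% to 67.6% in Chelator (exact permutation p = 0.7, adjusted p = 0.7). PCBP4 held 0.182%, 0.229% and 0.194% in DMSO and 0.542%, 0.430% and 0.718% in Chelator, without overlap. Its two-sided exact permutation p of 0.1 is the smallest that 3 against 3 libraries allow, and the adjusted p was 0.4. PCBP3 held 0.00558% to 0.153% in DMSO and 0.00784% to 0.0202% in Chelator (exact permutation p = 0.5, adjusted p = 0.667). The ratio of PCBP1 to PCBP2 was 0.569 to 0.586 in DMSO and 0.471, 0.574 and 0.581 in Chelator. HNRNPK relative to PCBP1 and PCBP2 together was 0.489 to 0.515 in DMSO and 0.568 to 0.604 in Chelator, a description that was not tested.

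PCBP2 mRNA is spliced into several coding forms. Of 26 annotated transcripts 22 could be tested for usage, and 5 held at least 5% of the gene. PCBP2-202 encodes 366 residues and carries the 93-base, 42-base and 39-base exons shown further on. It held 28.1%, 28.0% and 27.8% of PCBP2 TPM in DMSO and 26.2%, 23.7% and 22.8% in Chelator. PCBP2-222 encodes 361 residues, lacking 12 bases and 3 bases of that coding sequence at 2 splice sites. It held 25.6%, 26.1% and 26.9% in DMSO and 30.0%, 30.9% and 29.6% in Chelator. PCBP2-202 led in DMSO and PCBP2-222 led in Chelator, in every library of each group. In TPM, PCBP2-202 was at 148, 166 and 148 in DMSO and at 132, 109 and 105 in Chelator. PCBP2-222 was at 134, 155 and 143.5 TPM in DMSO and at 151, 141 and 136 TPM in Chelator, which overlapped. The transcript-level adjusted p was 1 for PCBP2-202 (unadjusted 0.363) and 0.959 for PCBP2-222 with edgeR diffSpliceDGE, and 0.0285 and 0.00473 with limma diffSplice.

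PCBP2-201 encodes 331 residues and lacks the 93-base exon and 12 further coding bases of PCBP2-202. It held 19.9% to 20.9% of the gene in DMSO and 18.5% to 19.7% in Chelator. PCBP2-213 (335 residues), which lacks the 93-base exon alone, held 7.16% to 8.91% and 6.60% to 7.05%. PCBP2-223 (322 residues), which lacks both the 93-base and the 39-base exon, held 4.83%, 4.42% and 3.55% in DMSO and 5.59%, 6.46% and 6.79% in Chelator. None of these 3 passed with edgeR diffSpliceDGE (adjusted p 1, 1 and 0.307), while PCBP2-223 passed with limma diffSplice (0.000714). Of the 22 tested PCBP2 transcripts 2 passed with edgeR, both minor, beside 2.63% of all tested transcripts. With limma diffSplice 7 passed, beside 10.8%, among them the minor PCBP2-215 (adjusted p = 3.19e-05, mean share 4.19% in DMSO and 2.39% in Chelator) and PCBP2-211 (0.000805, 0.304% and 1.00%). PCBP2-209, a retained-intron transcript, held 0.391%, 0.402% and 0.508% in DMSO and rose to 0.996%, 1.63% and 1.72% (adjusted p = 0.0141, edgeR). PCBP2-207, a coding transcript of 3159 bases, held 0.438%, 0.624% and 0.627% and fell to 0.158%, 0.123% and 0.0926% (adjusted p = 0.00248). As a gene PCBP2 passed the usage test (adjusted p = 0.00935, edgeR diffSpliceDGE with Simes' method, against 10.8% of 11938 genes), but its largest share change was 3.96 points, under the 5 points required of a call. The gene-level p missed the threshold without the second DMSO library (adjusted p = 0.0546) and without the third Chelator library (0.0746). PCBP2-209 missed it without the first DMSO (0.0636), the second Chelator (0.114) or the third Chelator library (0.120), while PCBP2-207 passed without any one of the 6.

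HNRNPK had 34 annotated transcripts, of which 20 could be tested and 4 held at least 5% of the gene. HNRNPK-202 encodes 463 residues and held 48.2%, 46.6% and 49.4% in DMSO and 51.4%, 52.8% and 51.9% in Chelator. HNRNPK-205 encodes 464 residues with a different final coding segment, 31 bases in place of 28, and has a 3′ UTR of 1324 bases against 441 bases in HNRNPK-202. It held 18.2%, 19.95% and 16.4% in DMSO and 14.6%, 12.9% and 12.04% in Chelator. The Chelator libraries lay below all DMSO libraries, yet the transcript did not pass (adjusted p 1; 0.00167 with limma diffSplice). HNRNPK-204 shares the coding sequence and the 3′ end of HNRNPK-205. It was at 8.83, 18.1 and 26.2 TPM in DMSO and at 5.20, 0 and 0 TPM in Chelator, and its share fell by 3.71 points (adjusted p = 0.000202). HNRNPK-206, which lacks the 72-base exon and encodes 440 residues, held 13.8%, 12.8% and 11.0% in DMSO and 14.2%, 15.7% and 16.6% in Chelator (adjusted p 1). HNRNPK-220 (459 residues) held 8.21% to 8.97% and 8.53% to 9.04%. Of the 20 tested transcripts HNRNPK-204 alone passed with edgeR, beside 2.63% of all tested transcripts, and 5 passed with limma diffSplice, beside 10.8%.

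HNRNPK was called for usage (adjusted p = 0.000683, edgeR diffSpliceDGE with Simes' method, largest share change 5.03 points), against 9.22% of genes. The 2 criteria were met by different transcripts. The largest share change was that of HNRNPK-205, which did not pass by itself with edgeR. The low p came from HNRNPK-204, whose share changed by less than 5 points. No single HNRNPK transcript met both criteria. The call rested on a change just above 5 points and was lost without the second or the third DMSO library (4.15 points, adjusted p = 0.0105, and 5.90 points, adjusted p = 0.127) and without the second or the third Chelator library (4.89 and 4.47 points). The shares of 12 of the 22 tested PCBP2 transcripts and of 10 of the 20 tested HNRNPK transcripts did not overlap between the groups, beside 30.9% of all 74109 tested transcripts.

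**Figure D3:**
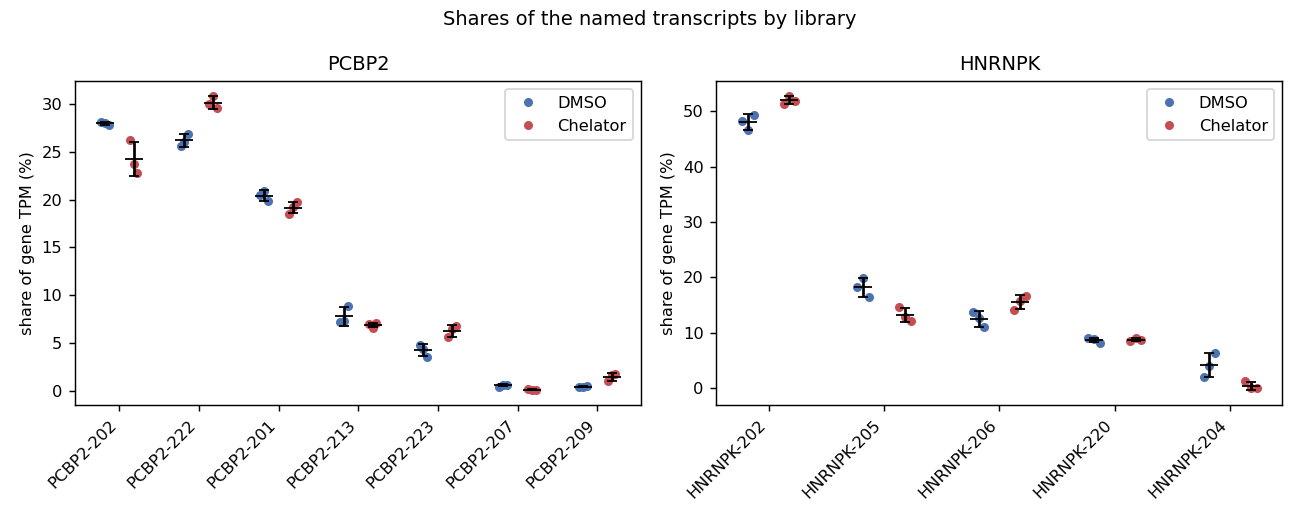
Share of the gene's TPM (y axis, %) for the named transcripts of PCBP2 (left) and HNRNPK (right) in each DMSO (blue) and Chelator (red) library, with mean ± SD. PCBP2-202 leads in DMSO and PCBP2-222 in Chelator, and HNRNPK-205 and HNRNPK-204 lie lower in Chelator.

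The grouping of transcripts by annotated class and 3′ end was chosen after their values were seen and is given with no test. Retained-intron transcripts held 0.956%, 0.903% and 0.850% of PCBP2 in DMSO and 2.06%, 3.27% and 3.65% in Chelator. In HNRNPK they held 1.23%, 1.01% and 0.976% in DMSO and 2.63%, 2.40% and 2.98% in Chelator. Transcripts annotated for nonsense-mediated decay held 1.81% to 1.95% of PCBP2 in DMSO and 1.93% to 2.94% in Chelator, and 0.0185% to 0.322% and 0.345% to 0.855% of HNRNPK. The coding share was lower, 97.1% to 97.3% against 93.4% to 95.2% in PCBP2 and 98.7% to 98.9% against 96.2% to 97.3% in HNRNPK. Of 6851 genes with a retained-intron transcript and 100 counts in every library, 22.7% had a higher share in every Chelator library, with a median change of 0.457 points. The change was 2.09 points in PCBP2 and 1.60 points in HNRNPK.

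The HNRNPK transcripts ending at the distal 3′ end on chr9 held 20.3%, 23.9% and 22.8% of the gene in DMSO and 15.8%, 12.9% and 12.04% in Chelator. Weighted by TPM, the mean 3′ UTR of coding HNRNPK transcripts came to 652, 685 and 683 bases with DMSO and to 611, 582 and 575 bases with the chelator. In PCBP2 the same mean came to 347, 350 and 342 bases with DMSO and to 332, 326 and 329 bases with the chelator. Both genes were shorter in every Chelator library. The TPM-weighted length of whole transcripts differed by -109 bases in HNRNPK and by -42.3 bases in PCBP2 (Chelator minus DMSO), beside a median change of -19.6 bases over 11197 genes, of which 25.4% were shorter in every Chelator library. Fragment lengths were also shorter in all Chelator libraries, and their part in these lengths was not tested.

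**Figure D4:**
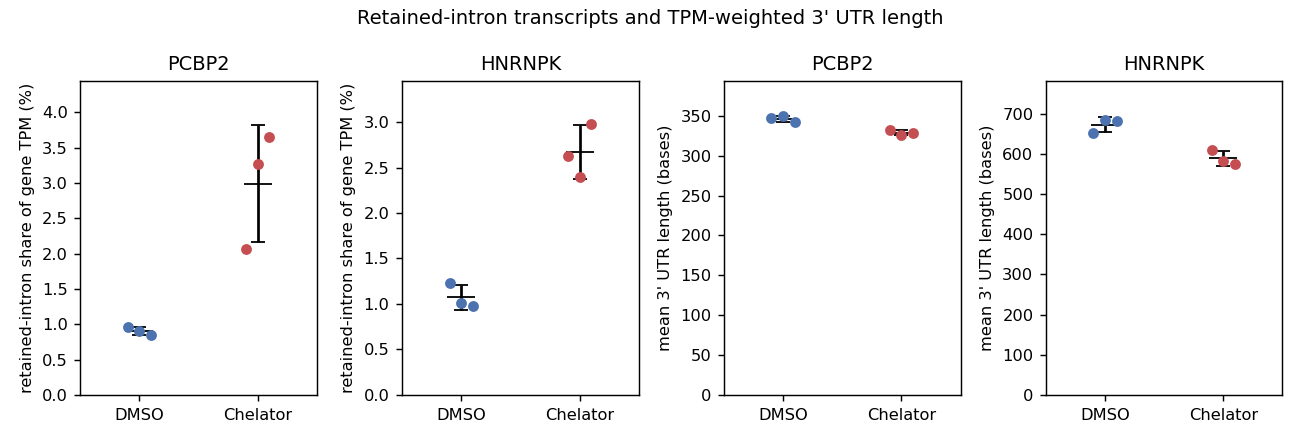
Retained-intron share of gene TPM (%, left pair) and TPM-weighted mean 3′ UTR length (bases, right pair) of PCBP2 and HNRNPK in each DMSO (blue) and Chelator (red) library, with mean ± SD and axes from 0. In both genes all Chelator libraries lie above DMSO for the share (2.06% to 3.65% in PCBP2) and below it for the length (575 to 611 bases in HNRNPK).

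PCBP4 and PCBP3 were too low for isoform statements. PCBP4-202 and PCBP4-205, which encode the same 403 residues, held 30.8% to 63.3% and 19.2% to 49.5% of PCBP4 in DMSO. In Chelator they held 34.3% to 58.5% and 0% to 14.4%, and none of the 6 tested PCBP4 transcripts passed with edgeR. With limma diffSplice PCBP4-205 passed (adjusted p = 0.0377). In TPM, PCBP4-202 was at 0.466, 1.35 and 0.71 in DMSO and at 1.85, 1.82 and 1.80 in Chelator. The short transcripts PCBP4-213 and PCBP4-217 (539 and 559 bases) were at 0 in DMSO, and held 16.4% and 28.6% of the third Chelator library. PCBP4-213 also held 22.6% of the first. PCBP4-207 and PCBP4-210 stayed under 9% in every library. Of 22 PCBP3 transcripts 16 had no count in any library, and PCBP3-206, PCBP3-213 and PCBP3-222, which exceeded 5% of the gene on average in a group, were each at 0 in at least 1 library.

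Inclusion of single exons was computed from transcripts that contain or skip an exon between the same neighbours. The splice acceptors of the 4 alternative coding exons of PCBP2 and HNRNPK are shown because some isoforms named above differ by these exons. The exons do not separate PCBP2-202 from PCBP2-222, or HNRNPK-202 from HNRNPK-205. The last 20 intron bases are in lower case and the first 10 exon bases in capitals (hg38).
PCBP2 93-base exon, chr12:53464740-53464769, plus strand: aatcctctatttatccacagGACAGGTACA
PCBP2 42-base exon, chr12:53465912-53465941, plus strand: ctgttttcctccttttgtagGCCTATACCA
PCBP2 39-base exon, chr12:53467785-53467814, plus strand: tttcacttgtatcttaacagGCATTGAATC
HNRNPK 72-base exon, chr9:83973964-83973993, minus strand: tcttatttttctactttcagGGCCTGCAGT
Cytosine made up 26%, 16%, 20% and 28% of the 50 intron bases before these exons in the order shown, beside a median of 22% over 64325 internal exons of the members' chromosomes. A run of CCC occurred before the 93-base exon alone, and before 43.9% of all those exons.

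The 93-base exon of PCBP2 was included at 62.6%, 62.6% and 63.0% in DMSO and at 64.3%, 62.7% and 60.9% in Chelator where the next exon followed. With the next exon skipped, inclusion was 19.7%, 24.4% and 23.1% in DMSO and 35.3%, 24.8% and 36.7% in Chelator (adjusted p = 0.273). The 39-base exon was at 88.8%, 89.3% and 90.8% in DMSO and at 87.0%, 85.9% and 84.9% in Chelator (adjusted p = 0.277). The 42-base exon was at 84.7%, 86.3% and 85.4% and at 87.8%, 87.9% and 89.0% when the 93-base exon was out (adjusted p = 0.401), and at 97.0% to 97.4% and 95.6% to 97.4% when it was in. Except for the first and last of these events, the groups did not overlap.

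The 72-base exon of HNRNPK, whose absence marks HNRNPK-206, was included at 85.9%, 87.0% and 87.6% in DMSO and at 85.4%, 83.9% and 82.7% in Chelator (adjusted p = 0.441, limma). The 44-base exon of HNRNPK was included above 99% in every library (unadjusted p = 0.0395, adjusted p = 0.235). The 80-base exon was above 99% between either pair of neighbours and the 130-base exon under 0.3%. In PCBP2 the 24-base exon was above 99% and the 95-base exon at 1.58% to 2.68%. In PCBP4 the 129-base exon was at 93.2% to 98.2%, and the 148-base and 83-base exons ranged from 0% to 81.2% and from 0% to 67.4% over their events. The 340-base and 146-base forms of the PCBP4 locus stayed under 2.2%, the second at 0% in all 6 libraries despite an unadjusted p of 0.0177. Of the 19 events tested in members, 0 were called by limma (adjusted p 0.174 to 0.995), 3 had an unadjusted p under 0.05 and 6 did not overlap. Over all 32779 events 0.47% were called, 19.2% had an unadjusted p under 0.05 and 18.6% did not overlap.

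**Figure D5:**
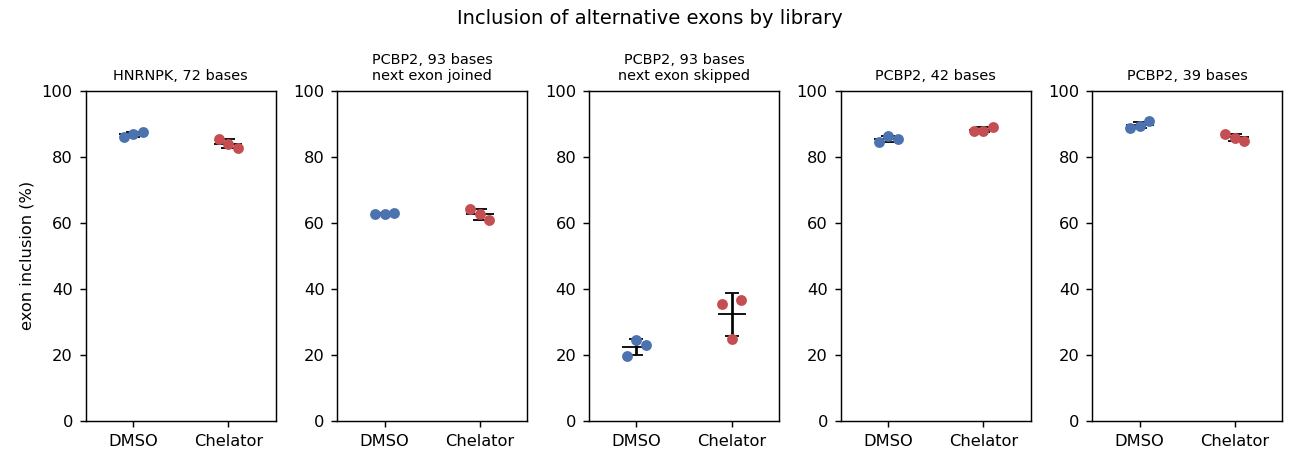
Inclusion (y axis, %, from 0 to 100) of alternative exons of HNRNPK and PCBP2 in each DMSO (blue) and Chelator (red) library, with mean ± SD; the 93-base exon has 2 panels, by whether the next exon follows. Inclusion of the 39-base and 72-base exons is lower in all Chelator libraries, with differences of -3.72 and -2.86 points that did not pass.

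Other genes at these loci share sequence with the members. Of the 31-base words of PCBP1-201, 70.5% occur in reverse complement in the antisense gene PCBP1-AS1, which had 906, 1020 and 942 counts in DMSO and 1264, 1536 and 1306 in Chelator (log2 0.06, adjusted p = 0.799). PCBP1 itself had 30550 to 37426 counts. The same-strand long non-coding RNA ENSG00000257379 overlaps PCBP2 and holds 45.2% of the words of PCBP2-202, 63.6% of those of PCBP2-222 and 68% of those of the retained-intron transcript PCBP2-211. It had 220, 156 and 220 counts in DMSO and 464, 1048 and 539 in Chelator, and rose by log2 1.47 (SE 0.25, adjusted p = 2.52e-08). PCBP2 had 45435 to 55998 counts. PCBP2-209 shares 8.88% of its words with other genes on its strand.

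The other neighbours did not pass. They were MAP3K12 (387 to 575 counts), PCBP2-OT1 (12 to 28), ABHD14B (4876 to 6977), ABHD14A (327 to 459), HNRNPK-AS1 (11 to 30) and the processed copy PCBP2P1 (3 to 14), with adjusted p of 0.553 to 0.97. Of the words of HNRNPK-202, 44.7% occur in other genes on the same strand, chiefly in the processed copy HNRNPKP4, which had at most 3 counts. None of the words of HNRNPK-202, HNRNPK-204, HNRNPK-205, PCBP2-202, PCBP2-207 or PCBP2-222 is unique to that transcript. The split between isoforms therefore rests on the quantifier's model, also for HNRNPK-204 and PCBP2-207, which passed with edgeR. Whether the library kit preserved strand is not given in the sources used here, so reads of PCBP1 and PCBP1-AS1 may not have been told apart. The same holds for PCBP2-207, which had 91.6 to 700 counts and shares 46.8% of its words with MAP3K12 on the opposite strand.

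Partners of the iron chaperones were counted as a list. Of 12 genes 11 were tested, 1 was higher and 6 were lower at an adjusted p under 0.05, beside 19.5% higher and 18.3% lower among all genes, and the median log2 fold change was -0.25 beside 0.02 over all genes. BOLA2 and GLRX3, which form an iron-sulfur delivery complex, fell by 0.62 and 0.39 on the log2 scale (adjusted p = 3.48e-10 and 2.95e-05). BOLA2B, a near-identical copy of BOLA2 whose reads may be split between them, fell by 0.65 (adjusted p = 2.31e-05). SLC40A1, the iron exporter ferroportin, fell by 0.54 (adjusted p = 1.39e-09). The 1 higher gene was FTH1, the ferritin heavy chain that receives iron from PCBP1 (log2 0.22, adjusted p = 0.022), named after its value was seen.

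Among 29 other KH-domain genes 26 were tested, 5 were higher and 12 were lower (19.5% and 18.3% of all genes), with a median of -0.15. MEX3B rose by log2 1.55 (adjusted p = 7.64e-103). AKAP1, a mitochondrial surface anchor, fell by 0.85 (adjusted p = 7.86e-32) and MEX3A fell by 0.84 (adjusted p = 4.35e-27). TDRKH rose by log2 1.16 (adjusted p = 3.50e-15). Of 7 mRNAs classically bound by PCBPs or hnRNP K 5 were tested, 2 were higher and 1 was lower, beside the same shares of all genes, with a median of 0.15. CDKN1A, the cell cycle inhibitor p21, rose by log2 3.51 (adjusted p = 1.34e-221). COL1A1 rose by 1.60 (adjusted p = 1.43e-16), and MYC fell by 0.28 (adjusted p = 0.00219). The alpha-globin genes did not pass: HBA1 had a log2 fold change of 0.15 (adjusted p = 0.147) and HBA2 of -0.01 (adjusted p = 0.926).

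The genes most alike in pattern over the 6 libraries, by Pearson r of log2 normalized counts and as a description, were RMDN3, TTC4 and EBNA1BP2 for PCBP1 (r 0.998 to 0.999). They were PEDS1-UBE2V1, ZNF417 and IST1 for PCBP4 (0.989 to 0.993) and OSTF1, CNOT3 and VDAC1 for HNRNPK (0.973 to 0.995). With 10340 or 10341 genes compared over 6 libraries that differ mainly by group, 2215 genes exceeded r of 0.9 with PCBP1 and 71 with HNRNPK.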

How the data were processed

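The 6 K562 libraries were polyA-selected and sequenced as paired ends. The authors quantified transcripts with Salmon 1.10.2 and deposited, for each transcript and library, estimated counts (fractional values allowed), a TPM value, a length and an effective length. The labels name hg38. The annotation is not given in the sources used here, and transcript identifiers were matched to GENCODE release 44, of which 251142 agreed in version and length, 470 in identifier alone and 433 not at all.

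Estimated counts were summed per gene and rounded. DESeq2 1.42.0 (Wald test, R 4.3.3) was run with average effective length as offset on genes with a total above 10, with Benjamini-Hochberg adjustment. Calls required an adjusted p under 0.05 together with a log2 fold change beyond 1 in either direction. Transcript usage was tested with edgeR 4.0.16 diffSpliceDGE on transcripts with at least 10 counts in 3 libraries, and a gene was called when its adjusted Simes p was under 0.05 and a share changed by more than 5 points. Exon inclusion was tested with limma 3.58.1 on log2 ratios of inclusion to exclusion TPM (pseudocount 0.1). Family shares were compared by exact permutation. The 3 tests across features were tested on simulated data, where the usage test made more false calls than its nominal rate, so its p-values may be too small. Depth was 78.6 M to 101.1 M counts.

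Named were the 5 members, transcripts of at least 5% or called, every tested exon, neighbours with 10 counts, up to 4 genes per list by adjusted p and the 3 most alike genes (those of PCBP2 are not reported here). Members and lists were chosen with earlier results of these data known. Alternatives are given in the closing section.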

Additional observations from a re-analysis of the deposited data

How the results depend on the processing

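PCBP1, PCBP2 and PCBP4 kept their direction and an adjusted p under 0.05 in every alternative run. PCBP4 lost its 2-fold call with limma (log2 0.98), without the length offset (0.96), with GC content and length trends removed (0.81) and with those trends and a replicate block (0.79). HNRNPK was at 0.00597 with edgeR and with TMM size factors, and at -0.22 with centred libraries, where it passed. PCBP3, at -2.20 as reported, was at -0.19 without the length offset (adjusted p = 0.891, DESeq2), at -0.26 with limma (0.77) and at -1.57 with a replicate block (0.267), and it passed with centred libraries (-2.36) and with GC content and length trends removed (-2.51). Leaving out single libraries gave PCBP3 -2.87 to -0.39, and it passed without the third DMSO library. The usage call of HNRNPK spanned 4.15 to 5.90 points. The count of genes called for usage was 1101, against 3184 with limma diffSplice and 539 to 1063 without single libraries (592 without the second and 539 without the third Chelator library). With the effective length of each transcript as offset, an alternative added after seeing the data, it was 1066. The count of skipped exons called was 154, against 1563 with a pseudocount of 1, 0 with a replicate block (5478 at an unadjusted p under 0.05) and 36 to 119 without single libraries. The PCBP2 share of the family differed by 1.42 points, and by -0.12 to 2.30 without single libraries, the first value without the first Chelator library, while that of PCBP1 was -1.73 points and spanned -2.53 to -0.207, the last also without the first Chelator library. The causes were not tested.

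Deviations from the group mean correlated at -0.07, 0.13 and 0.10 between libraries of the same replicate number. With 3 libraries per group, these values cannot decide whether the replicate numbers pair the libraries. With a replicate block 2345 genes were called, against 2646, and 923 genes for usage. Pairing leaves the family share differences of PCBP1, PCBP2 and PCBP4 (-1.73, 1.42 and 0.362 points) as they are by arithmetic, and the exact paired permutation p was 0.5, 1 and 0.25, the last being the smallest that 3 pairs allow. No member lost its adjusted p under 0.05 with the block alone.

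Without single libraries the sign also turned for these values that had not passed, given in points: HNRNPK-220 (-0.127 to 0.253), PCBP4-202 (-7.06 to 9.22), PCBP3-222 (untested, -38.5 to 14.7), the 80-base exon of HNRNPK (-0.000836 to 0.0861), the 24-base exon of PCBP2 (-0.0320 to 0.0399), the 93-base exon of PCBP2 (-0.920 to 0.786, and 0.102 over transcripts of at least 500 bases) and the 129-base exon of PCBP4 (-0.487 to 2.01).

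Counts limit PCBP3 and the isoforms of PCBP4.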
